A study of Mus musculus with 3 samples.

Results

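The oxidative phosphorylation genes were taken as the rows of the count matrix whose symbol starts with Nduf, Uqcr, Cox4, Cox5, Cox6, Cox7, Cox8, Atp5 or mt-. The rule found 101 of 27998 rows, 88 encoded in the nucleus and 13 in the mitochondrial genome, and used no measured value. By symbol the nuclear rows comprise 36 complex I subunits, 7 complex I assembly factors, 8 complex III subunits, 11 widely expressed and 7 tissue-restricted complex IV subunits and 15 complex V subunits. The remaining 4 rows were kept apart: Ndufa4 and Ndufa4l2, which carry complex I names although Ndufa4 is now counted with complex IV, and Atp5s and Atp5sl, which are not subunits of the enzyme (the annotation of GENCODE vM21 names Atp5sl as Dmac2). A UMI was found for 86 of the 88 nuclear rows and for all 13 mt- rows, and 83 nuclear and 12 mt- rows had at least 50 UMIs.

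The cells were sorted by FACS for Cd11b, a surface integrin of microglia and other myeloid cells and of NK cells, from whole brains without the cerebellum of female C57BL6J mice of 5 months, and sequenced with the 10x Chromium 3′ v2 chemistry. By the labels, Ctrl is an untreated library from 1 animal. D0 pools 2 animals that ate chow containing PLX5622 at 1200 mg/kg for 14 days, and D2 is 1 animal given the same chow for as long and then 2 days of control chow. PLX5622 inhibits Csf1r, the receptor on which microglia depend for survival. Per the protocol 4 samples were prepared at the same time, and labels for 3 of them were used here. Barcodes carry a suffix from 1 to 3 that neither labels nor files tie to Ctrl, D0 or D2, so the suffixes stand side by side below, no comparison of the treatment groups was made, and with 1 library each no test across animals was possible.

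Oxidative phosphorylation couples the transfer of electrons through complexes I, III and IV of the inner mitochondrial membrane to the pumping of protons, and complex V, the ATP synthase, uses the proton gradient to make ATP. Most subunits are encoded in the nucleus and imported, while the mitochondrial genome encodes core subunits of complexes I, III, IV and V that are cut out of long transcripts of each strand. Complex II is wholly nuclear and lies outside the naming rule.

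After filtering, 2137 cells and 13168690 UMIs remained, with 1261, 592 and 284 cells and median depths of 3660, 6215 and 8143 UMIs in suffixes 1, 2 and 3. No barcode sequence occurred under more than 1 suffix. Clusters were named from marker lists and are written with the ending "-like". Microglia-like cells (1150, in 3 clusters with all 12 of 12 markers) came mostly from suffix 1 (1085 cells, against 63 in suffix 2 and 2 in suffix 3). The other classes were border-associated macrophage-like (84 cells), classical monocyte-like (109), non-classical monocyte-like (83), Cd209a dendritic-like (280), Ccr7 dendritic-like (60), neutrophil-like (134) and NK-like cells (125), and a cluster of 91 cells led by Birc5, Ube2c and Top2a stayed unnamed and is called the cycling cluster. A class enters below in each suffix in which it had at least 20 cells, which gave 17 combinations of class and suffix. Intervals are exact 95% intervals for the counting of UMIs and do not include variation among cells or animals.

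Nuclear oxidative phosphorylation transcripts took the smallest share of UMIs in microglia-like cells of suffix 1 and the largest in monocyte-like, NK-like and cycling cells of suffix 3. In microglia-like cells the nuclear sum was 1.39% of UMIs (1.38 to 1.40) in suffix 1 and 1.66% (1.62 to 1.71) in suffix 2. Border-associated macrophage-like cells of suffix 1 had 1.52% (1.49 to 1.55). Neutrophil-like cells had 1.68% in suffix 2 and 1.55% in suffix 3, and Ccr7 dendritic-like cells had 1.81% in suffix 2. These 3 classes and microglia-like cells thus lay under 2% throughout.

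Cd209a dendritic-like cells were the only class with at least 20 cells in all 3 suffixes, and their nuclear sum was 1.84%, 1.97% and 2.32% in suffixes 1, 2 and 3. Classical monocyte-like cells had 2.27% in suffix 2 and 2.70% in suffix 3, non-classical monocyte-like cells 2.31% and 2.61%, NK-like cells 2.41% and 2.66%, and the cycling cluster 2.20% and 2.68%. The share was higher in suffix 3 than in suffix 2 in 5 of the 6 classes present in both, by a log2 ratio between 0.14 in NK-like cells and 0.29 in the cycling cluster. Neutrophil-like cells were the exception, at -0.11 (-0.18 to -0.05). Over all cells the nuclear share was 1.45%, 1.97% and 2.61% in suffixes 1, 2 and 3, which also mixes in their different make-up of classes.

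**Figure D1:**
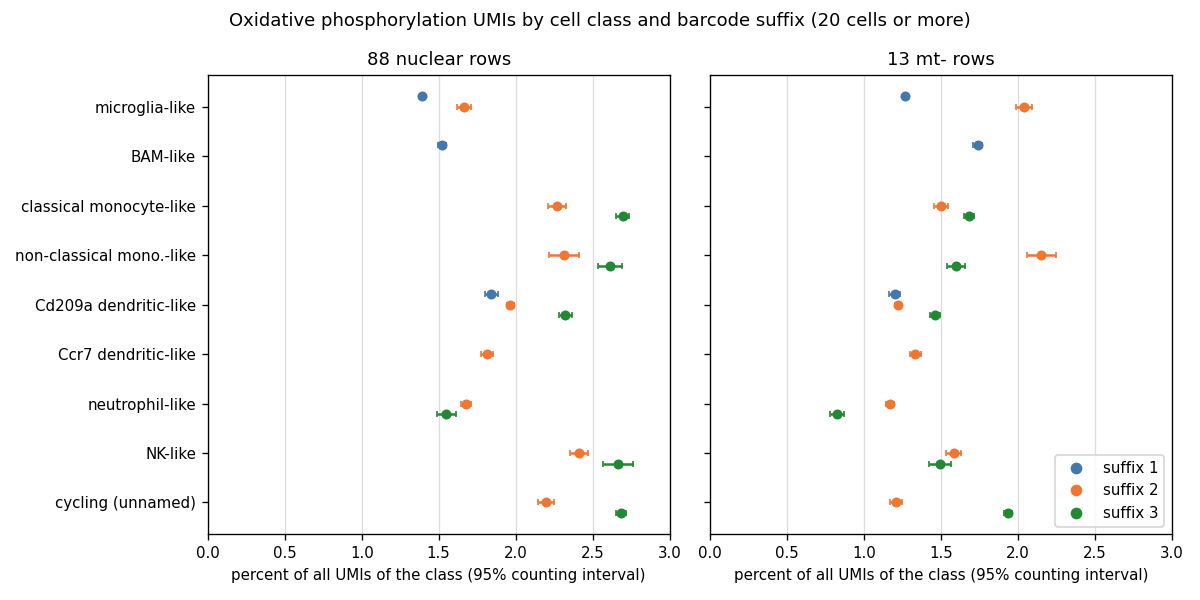
Share of UMIs from the 88 nuclear rows (left) and the 13 mt- rows (right) for each cell class with at least 20 cells in a suffix. Points are percent of all UMIs of the class, colours are barcode suffixes, bars are exact 95% counting intervals. Microglia-like cells have the lowest nuclear share in suffix 1 (1.39%) and a high mt- share in suffix 2 (2.04%), and neutrophil-like cells of suffix 3 have the lowest mt- share (0.82%).

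The mitochondrially encoded sum had another order. It was highest in non-classical monocyte-like cells of suffix 2, at 2.15% (2.06 to 2.25), and in microglia-like cells of suffix 2, at 2.04% (1.99 to 2.09), whose intervals overlap. The former cluster also held endothelial markers in suffix 2, and at a finer resolution that separates cells led by such genes the class had 1.86%, below microglia-like cells. It was lowest in neutrophil-like cells, at 0.82% (0.78 to 0.87) in suffix 3 and 1.17% in suffix 2. Microglia-like cells of suffix 1 had 1.26%, near Cd209a dendritic-like cells, which had 1.20%, 1.22% and 1.46% in suffixes 1, 2 and 3. The mt- UMIs per nuclear oxidative phosphorylation UMI were 0.91 and 1.23 in microglia-like cells of suffixes 1 and 2 and 1.14 in border-associated macrophage-like cells, against 0.53 to 0.74 in all other combinations of class and suffix but non-classical monocyte-like cells of suffix 2, at 0.93. Over the 17 combinations the nuclear and the mt- sums had a Spearman correlation of 0.40, a description over points that share libraries and differ in depth.

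Cells with more than 10% mt- counts had been removed, a filter that uses the mt- genes described here. It took out 3 cells, with at least 11.9% mt- counts each, and the highest share among the cells kept was 9.10%. Ratios without that filter are among the alternatives below.

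The 13 mt- rows were unequal in level. Levels here are UMIs of a gene per 1000000 UMIs of the cells (CPM); a UMI stands for 1 captured transcript end, so they are not divided by gene length, and levels of different genes are limited by how well each end is captured. Over all cells mt-Atp6, the subunit of the proton channel of complex V, had 44663 UMIs (3392 CPM), and mt-Co1, mt-Co3 and mt-Co2, the core of complex IV, had 33083, 32544 and 19980 UMIs. Of the complex I genes mt-Nd1 had 19337, mt-Nd4 12026, mt-Nd2 6495, mt-Nd5 1988, mt-Nd3 1531 and mt-Nd4l 1503 UMIs, and mt-Cytb, the single mitochondrially encoded subunit of complex III, had 18468. The row with the fewest UMIs was mt-Nd6, with 43, the only one of the 13 on the minus strand. The 547 UMIs of mt-Atp8 stand against 44663 of mt-Atp6. Both genes lie on 1 processed transcript, mt-Atp8 upstream and mt-Atp6 toward the 3′ end, from which the chemistry reads. The part of this position in the counts was not tested. The 2 genes overlap by 43 bases (chrM:7927-7969, GRCm38). Likewise mt-Nd4l lies upstream of mt-Nd4, and they overlap by 7 bases (chrM:10167-10173). Overlaps of 14 bases between mt-Nd5 and mt-Nd6, which lie on opposite strands, and of 1 base between mt-Atp6 and mt-Co3 are not shown. The 2 longer overlaps within a strand are shown because reads within them cannot be given to 1 gene, in capitals with flanking bases in lower case, on the plus strand.

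mt-Atp8 and mt-Atp6, chrM:7907-7989: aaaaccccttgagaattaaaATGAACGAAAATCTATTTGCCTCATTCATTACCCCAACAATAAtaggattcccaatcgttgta
mt-Nd4l and mt-Nd4, chrM:10137-10203: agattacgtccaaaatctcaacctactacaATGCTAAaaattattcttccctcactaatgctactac

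In both sequences the capitals open with ATG, the start of the downstream gene, and end at the last base annotated for the upstream gene. Copies of mitochondrial sequence in the nuclear genome may share reads with the mt- rows, which was not tested.

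The make-up of the mt- UMIs set the macrophage classes apart from the rest. The complex I genes and mt-Cytb together made up 39.9% (39.5 to 40.3) of mt- UMIs in microglia-like cells of suffix 1, 34.8% (33.6 to 36.1) in suffix 2 and 35.8% (35.0 to 36.5) in border-associated macrophage-like cells. In Cd209a dendritic-like cells the share was 24.9%, 21.6% and 25.2% in suffixes 1, 2 and 3. Classical monocyte-like cells had 23.6% in both suffixes 2 and 3, non-classical monocyte-like cells 27.3% and 25.3%, neutrophil-like cells 24.8% and 21.8%, NK-like cells 26.7% and 27.4%, and Ccr7 dendritic-like cells 21.5%. The intervals of these 12 values do not reach those of microglia-like or border-associated macrophage-like cells. The cycling cluster gave 20.4% (19.1 to 21.7) in suffix 2 and 32.9% (32.2 to 33.5) in suffix 3. Its summed microglia markers were 1342 CPM in suffix 2 and 5576 CPM in suffix 3, and the part of this in the difference was not tested.

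In CPM single genes show this contrast in part, and for mt-Cytb the ranges overlap. mt-Cytb had 1599 and 2401 CPM in microglia-like cells of suffixes 1 and 2, 1789 CPM in border-associated macrophage-like cells, and between 536 CPM (neutrophil-like, suffix 3) and 1708 CPM (cycling, suffix 3) elsewhere. Within suffix 2 every other class had less mt-Cytb than the 2401 CPM of microglia-like cells, and non-classical monocyte-like cells came nearest at 1656 CPM. mt-Nd4l had 144, 195 and 194 CPM in the same 3 macrophage sets and 24 to 113 CPM elsewhere. By contrast mt-Co1 had 1760 CPM in microglia-like cells of suffix 1, the lowest of the 17 values, and 3030 CPM in suffix 2, within the range of the other classes of that suffix (2634 to 4318 CPM).

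**Figure D2:**
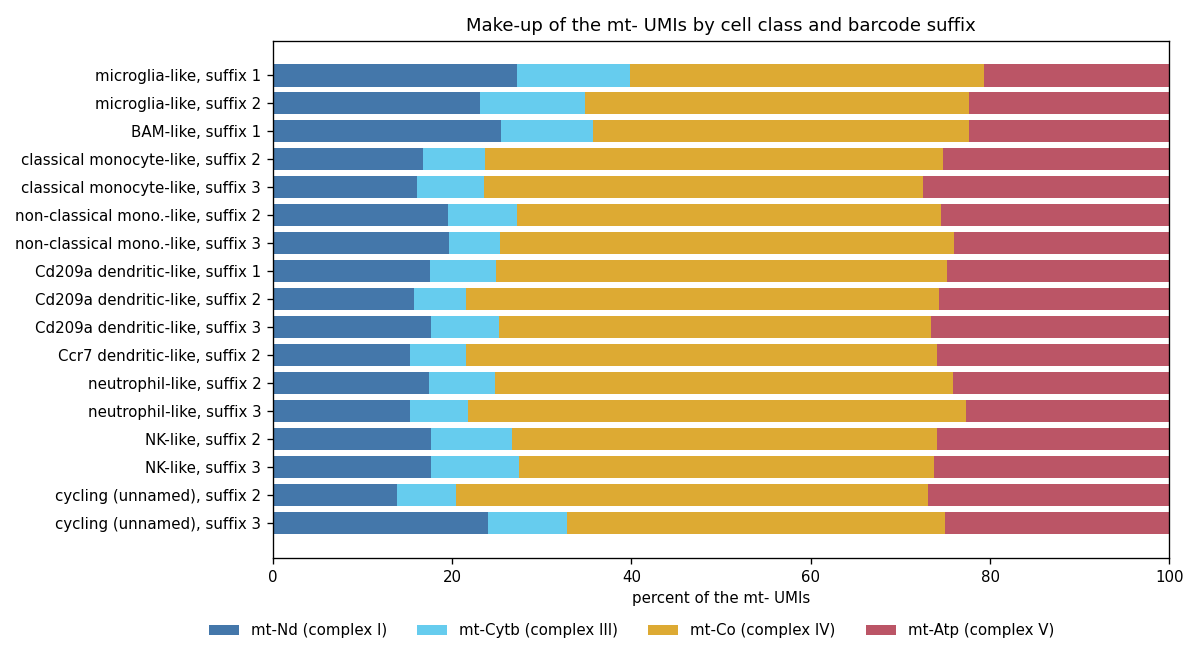
Make-up of the mt- UMIs in each class and suffix, as percent of all mt- UMIs; bar segments are the mt-Nd, mt-Cytb, mt-Co and mt-Atp genes. The mt-Nd and mt-Cytb segments reach 39.9%, 34.8% and 35.8% in the top 3 bars (microglia-like and border-associated macrophage-like, abbreviated BAM-like) and 20.4% to 32.9% in the others.

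Among the nuclear complex I subunits, levels over all cells ran from 29.8 CPM for Ndufs1, the large iron-sulphur subunit of the NADH-oxidising arm, to 345 CPM for Ndufa13, an accessory subunit. The 36 subunits summed to 4613 and 5135 CPM in microglia-like cells of suffixes 1 and 2, to 5068 CPM in border-associated macrophage-like cells, and to 7459 to 7748 CPM in NK-like, classical monocyte-like and cycling cells of suffix 3. The assembly factors, which build the complex and are not part of it, summed to 164 CPM in microglia-like cells of suffix 1, among the highest of the 17 values (82.5 to 186 CPM), whereas the subunits were at their lowest there. Assembly factors ran from 8.35 CPM (Ndufaf5) to 36.7 CPM (Ndufaf3) over all cells.

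Complex III ran from 116 CPM for Uqcrc2, a core protein, to 497 CPM for Uqcrh, the hinge protein that binds cytochrome c1. Its 8 subunits summed to 1480 and 1873 CPM in microglia-like cells of suffixes 1 and 2 and to 1563 CPM in border-associated macrophage-like cells. Neutrophil-like cells were in the same range, with 1764 CPM in suffix 2 and 1449.5 CPM in suffix 3. The highest were 3082, 3006 and 2972 CPM in cycling, non-classical and classical monocyte-like cells of suffix 3.

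In complex IV the 3 macrophage sets (microglia-like cells of suffixes 1 and 2 and border-associated macrophage-like cells) stood lowest but for neutrophil-like cells of suffix 3 (4578 CPM). Its 11 widely expressed subunits summed to 3687 and 4990 CPM in microglia-like cells of suffixes 1 and 2 and to 4193 CPM in border-associated macrophage-like cells, against 5227 to 7274 CPM in the other classes of suffix 2. Cox4i1, the regulatory subunit that stabilises the complex, had the highest level, 973 CPM over all cells, and Cox7b the lowest, 224 CPM. Cox5a, another nuclear subunit, had 153 and 185 CPM in microglia-like cells of suffixes 1 and 2 and 176 CPM in border-associated macrophage-like cells. In the other combinations of class and suffix it lay between 292 CPM (neutrophil-like, suffix 2) and 762 CPM (non-classical monocyte-like, suffix 3), with no overlap. Cox7b had 136, 138 and 120 CPM in the same 3 macrophage sets and 184 to 417 CPM elsewhere, also with no overlap. Cox7a2l, also among the 11 subunits, followed no such order, with 519 and 733 CPM in microglia-like cells of suffixes 1 and 2 and 371 CPM in neutrophil-like cells of suffix 3.

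Complex V ran from 127 CPM (Atp5g3) to 628 CPM (Atp5l, subunit g of the membrane part). Its 15 subunits summed to 3620 and 4190 CPM in microglia-like cells of suffixes 1 and 2 and to 3874 CPM in border-associated macrophage-like cells, and elsewhere to 4378 to 7929 CPM. Atp5l had 350.0, 461 and 435 CPM in the 3 macrophage sets and 604 to 1212 CPM elsewhere. Atp5h, subunit d of the stalk, had 294, 330 and 331 CPM in these sets against 456 to 1067 CPM. For neither gene do the ranges overlap. Cox5a, Cox7b, Atp5l and Atp5h are examples. How many members, or how many of all genes, separate in this way was not counted, so the separation has no background here.

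**Figure D3:**
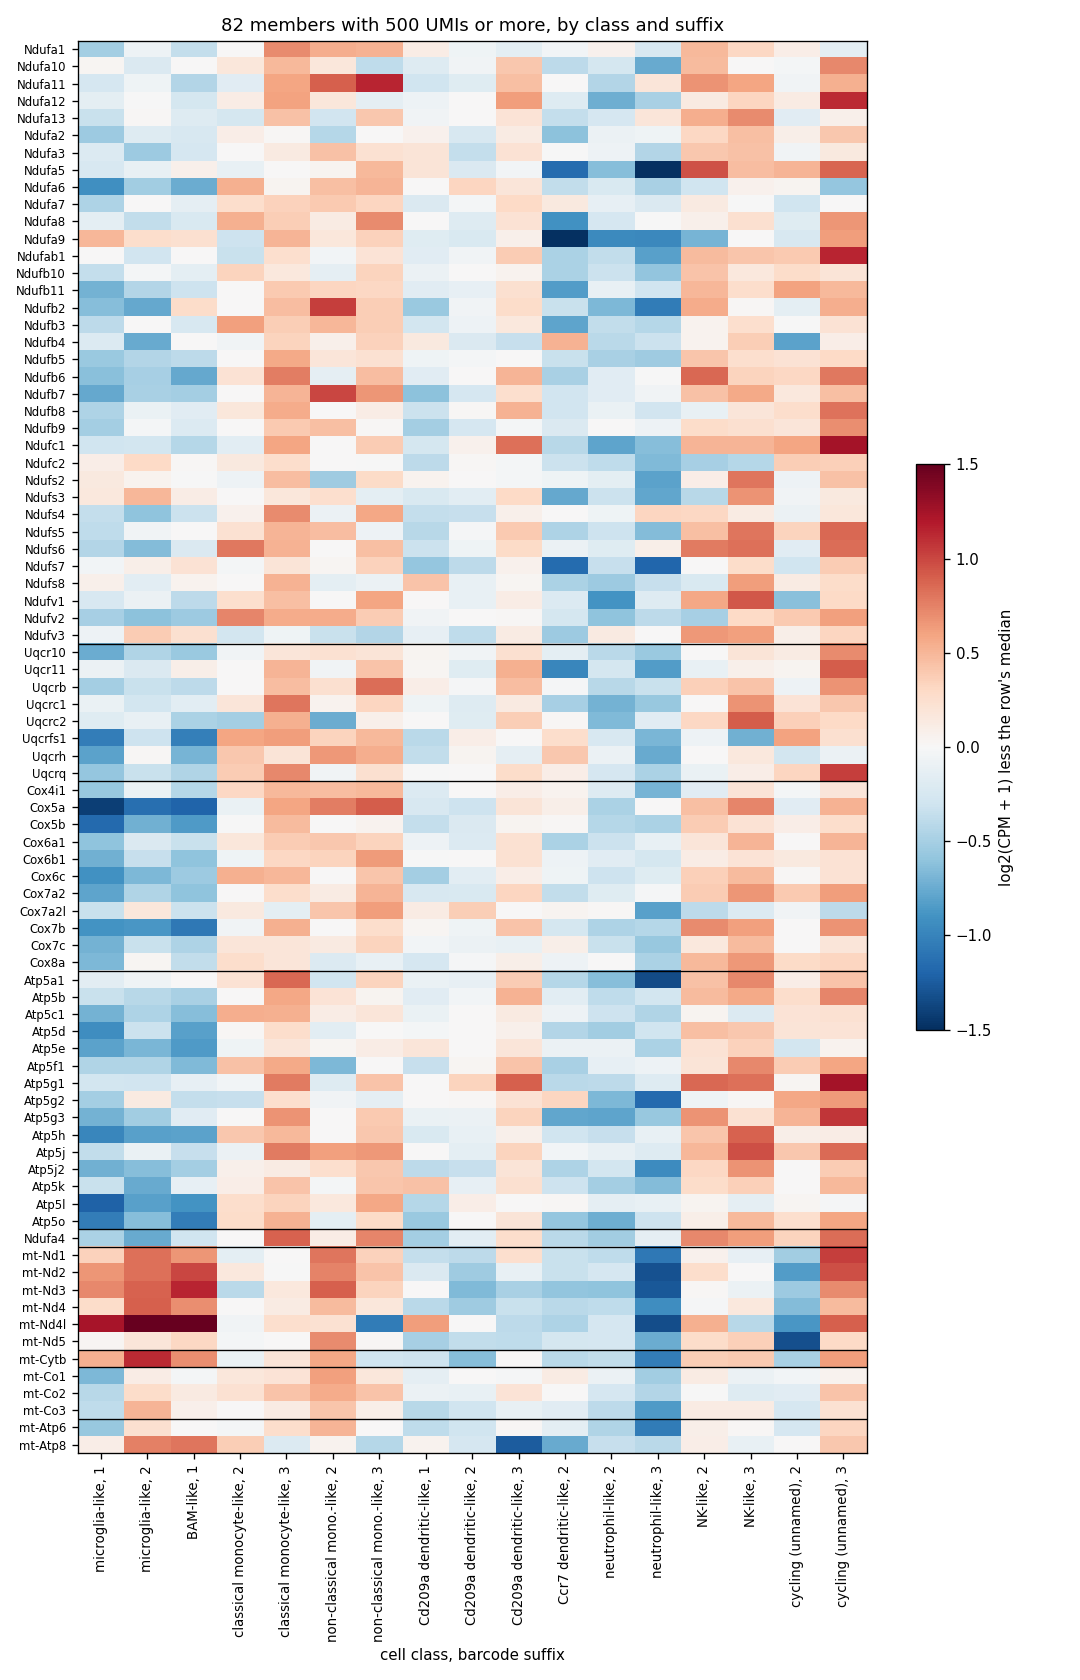
The 82 members with at least 500 UMIs (rows, grouped by complex, lines between groups) in the 17 combinations of class and suffix (columns; the number is the suffix). Colour is log2(CPM + 1) less the row's median over the columns. The 3 macrophage columns on the left are blue for Cox5a, Cox7b, Atp5l and Atp5h and red for mt-Cytb and most mt-Nd genes.

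Subunit c, which forms the rotating ring of complex V, is made from Atp5g1, Atp5g2 and Atp5g3, which encode the same mature protein behind different import signals. Atp5g2 made up 56.4% and 65.9% of their summed UMIs in microglia-like cells of suffixes 1 and 2. It made up 71.3% in Ccr7 dendritic-like cells, the highest value, with 158, 582 and 75.7 CPM for Atp5g1, Atp5g2 and Atp5g3. The lowest shares were 42.8% in NK-like cells of suffix 2 and 43.2% in neutrophil-like cells of suffix 3. Processed pseudogenes exist for several of these genes and for other members, and the part of reads shared with them was not tested.

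The tissue-restricted subunits of complex IV were rare. Cox7b2 and Cox8c had 0 UMIs, and a floor of 3 counts over all cells corresponds to 0.228 CPM. Cox4i2, the lung isoform, had 8 UMIs in 4 cells, and Cox7a1, a heart and muscle isoform, had 32 UMIs in 28 cells. Cox6b2, known from testis, had 191 UMIs, of which 80 lay in Cd209a dendritic-like cells (32.3 CPM, 25.6 to 40.2, in 61 of 280 cells) and 21 in microglia-like cells (4.0 CPM, 2.5 to 6.1). Cox6a2, a muscle isoform, had 126 UMIs, of which 70 lay in microglia-like cells (13.4 CPM, 10.4 to 16.9), 22 in the cycling cluster (15.4 CPM) and 9 in NK-like cells (21.4 CPM). Cd209a dendritic-like cells had 3 UMIs of Cox6a2 (1.2 CPM, 0.2 to 3.5). Cox6a2 (chromosome 7, 128205435 to 128206387, minus strand, GRCm38) lies within the annotated span of Itgad on the opposite strand, and whether the counting used strand is not given in the sources used here.

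Cox8b, a heart and muscle isoform, had 54 UMIs, 53 of them in 2 of the 12 cells of an unnamed cluster led by Ttr, Enpp2 and Mt3 (563 CPM, 422 to 737). The same cluster held 22 UMIs of Cox6b2 in 4 cells (234 CPM) and 6 of Cox7a1 in 2 cells. Its nuclear sum was 3.70% in suffix 2 (9 cells) and 6.14% in suffix 3 (3 cells), and none of its cells came from suffix 1. It had 5 of 12 microglia markers at 0.

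**Figure D4:**
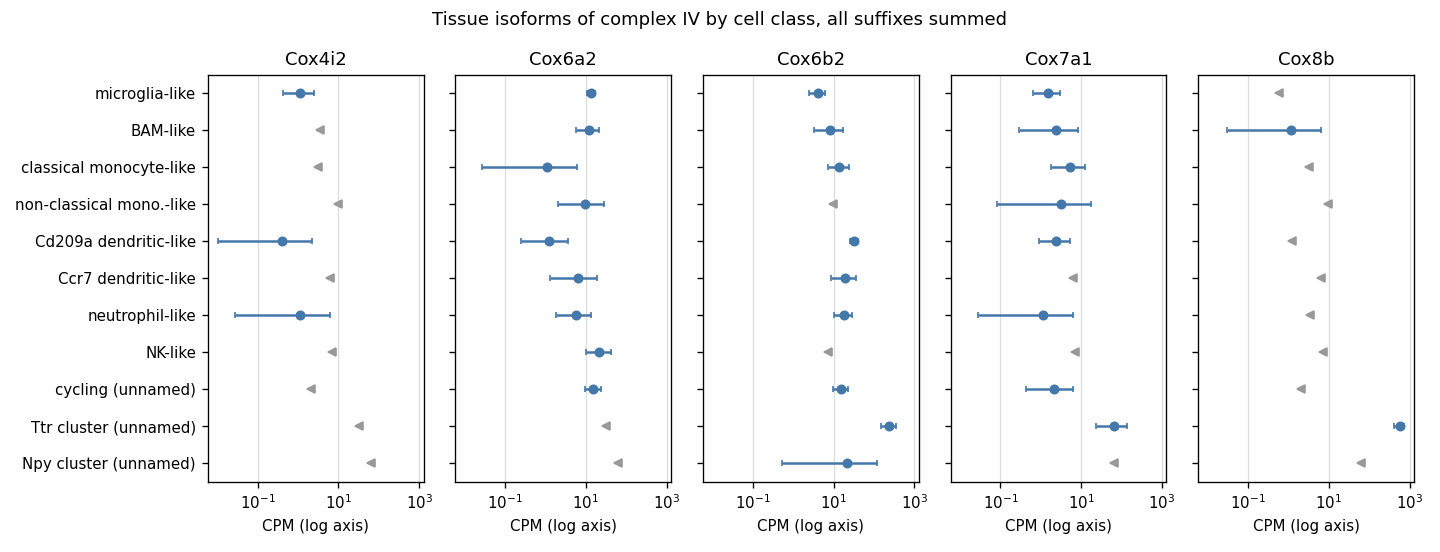
Level of 5 tissue-restricted complex IV subunits in each class and the 2 small unnamed clusters, all suffixes summed, in CPM on a log axis with exact 95% Poisson intervals; grey triangles mark 0 UMIs and are drawn at the level of 3 UMIs. Cox8b stands at 563 CPM in the Ttr-led cluster and Cox6b2 at 32.3 CPM in Cd209a dendritic-like cells.

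Microglia-like cells were compared between suffixes 1 and 2. The nuclear sum was higher in suffix 2 by a log2 ratio of 0.26 (0.22 to 0.30) and the mt- sum by 0.69 (0.65 to 0.73), while the median gene, among all with 50 or more UMIs, stood at -0.20; a scaling that sets this median to 0 moves the ratios to 0.46 and 0.89. At least 1.5-fold higher in suffix 2 were 7 of 78 nuclear members with at least 50 UMIs and 7 of 12 mt- genes, against 10.3% of 7238 genes tested, and 3 nuclear and 0 mt- members were at least 1.5-fold lower, against 26.6%. With the median set to 0 the nuclear split was 20 higher and 2 lower. The median log2 ratio of the nuclear members tested was 0.23 and that of the mt- genes 0.61.

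The 7 nuclear members were Cox6a2, Uqcrh, Uqcrfs1, Ndufaf2, Cox8a, Atp5g2 and Atp5d. Uqcrh had 344 CPM in suffix 1 and 605 CPM in suffix 2, a log2 ratio of 0.82 (0.58 to 1.04), and Uqcrfs1, the Rieske iron-sulphur protein of the same complex, had 101 and 168 CPM (0.75). Cox8a, the smallest nuclear subunit of complex IV, had 467 and 763 CPM (0.71). Atp5g2 had 327 and 508 CPM (0.64), and Atp5d, subunit delta of the catalytic head, 189 and 289 CPM (0.63). These were genes with many UMIs. Cox6a2 had 11.0 CPM (54 UMIs) and 50.4 CPM (15 UMIs), a log2 ratio of 2.27 with an interval from 1.27 to 3.05. Ndufaf2 rested on 117 and 11 UMIs (0.75), with an interval that includes 0.

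The 3 lower members all serve or belong to complex I. Ndufaf3 had 39.0 CPM in suffix 1 and 13.4 CPM in suffix 2 (-1.22), Ndufs1 40.5 and 20.2 CPM (-0.79) and Ndufaf4 32.9 and 16.8 CPM (-0.72). They rested on 4, 6 and 5 UMIs in suffix 2, and the intervals of Ndufs1 and Ndufaf4 include 0. Of the mt- genes mt-Co3 (0.89), mt-Atp6 (0.81), mt-Co1 (0.79), mt-Atp8 (0.73), mt-Co2 (0.70), mt-Nd4 (0.63) and mt-Cytb (0.59) lay past 1.5-fold. The others were mt-Nd1 (0.48), mt-Nd4l (0.46), mt-Nd3 (0.20), mt-Nd5 (0.17) and mt-Nd2 (0.17), so that all 12 were above 0. mt-Nd6 had too few UMIs to be compared.

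The microglia-like clusters were unequally spread, with 611, 377 and 97 cells of suffix 1 and 35, 6 and 22 cells of suffix 2 in the largest cluster, a cluster led by Gm13889 and Adamts1 and a cluster led by stress and cytokine genes such as Il1a and Tnf. Within the largest cluster the suffix 2 to suffix 1 log2 ratio was 0.12 (0.05 to 0.19) for the nuclear sum and 0.74 (0.68 to 0.81) for the mt- sum. Within the stress and cytokine cluster it was 0.40 (0.34 to 0.46) and 0.66 (0.61 to 0.72). The mt- difference was thus of like size in both clusters, and the nuclear one was not. Malat1, a nuclear RNA, stood at 37350 CPM in suffix 1 and 23682 CPM in suffix 2, and cytosolic ribosomal protein transcripts were higher in suffix 2 by a log2 ratio of 0.48; their part in these differences was not tested. Summed microglia markers were 42794 CPM in suffix 1 and 22381 CPM in suffix 2.

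The other classes were compared with the 63 microglia-like cells of suffix 2 within that suffix. At a finer resolution the microglia-like clusters held fewer cells of suffix 2, with 1, 34, 6 and 7 cells. The border-associated macrophage-like cluster then held 31 cells of suffix 2, against 2 before, at 2.54% nuclear and 3.20% mt- UMIs. No cluster led by Ttr or by Npy remained at that resolution. The small unnamed clusters led by these genes had 5.11% and 4.84% mt- UMIs in suffix 2. Which cells make up the 31 was not tested, so 3.20% may not be the share of microglia-like cells placed there. Some of the 63 cells were placed otherwise at that resolution, and their part in the ratios was not tested. The 6 comparisons share these microglia-like cells, so each is given with its own values. Since genes entered with at least 50 UMIs over both sums, members with few UMIs are missing from the smaller sets.

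In classical monocyte-like cells the nuclear sum was higher than in microglia-like cells by a log2 ratio of 0.45 (0.39 to 0.50), with the median gene at 0.22, and the mt- sum lower, at -0.44 (-0.50 to -0.39). Past 1.5-fold were 23 of 67 nuclear members higher and 1 lower, against 32.5% and 24.4% of 1430 genes, or 14 and 4 with the median set to 0. The highest were Ndufs6, a subunit near the zinc site of complex I, with 211 against 77.3 CPM (1.41), Ndufv2 (1.33), Atp5h and Cox6c (1.21 each), Atp5l (1.07) and Ndufa6 (1.05). The lowest were Ndufv3 (-0.65), Ndufs3 (-0.49), Atp5g2 (-0.47), Uqcrc2 (-0.39), Ndufa13 (-0.28) and Ndufc2 (-0.15). Of 11 mt- genes 6 lay at least 1.5-fold lower, mt-Nd4l (-1.68), mt-Nd3 (-1.25), mt-Cytb (-1.22), mt-Nd1 (-0.97), mt-Nd4 (-0.89) and mt-Nd2 (-0.66), and mt-Co1 stood at 0.06 and mt-Co2 at -0.05.

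In non-classical monocyte-like cells the nuclear ratio was 0.48 (0.40 to 0.55), with the median gene at 0.09, and the mt- ratio 0.08 (0.01 to 0.15), which becomes -0.01 with the median set to 0. Past 1.5-fold were 26 of 51 nuclear members higher and 1 lower, against 28.9% and 28.4% of 1001 genes. Cox5a had 691 against 185 CPM (1.90), followed by Ndufb7 (417 against 148 CPM), Ndufa3 (1.00), Ndufa11 (0.99), Ndufa6 (0.98) and Atp5l (0.98). The lowest were Ndufv3 (-0.63), Ndufa13 (-0.27), Ndufc2 (-0.25), Cox8a (-0.22), Atp5a1 (-0.20) and Ndufa2 (-0.20). mt-Nd4l (-1.29) was the 1 mt- gene past the fold. In suffix 2 this cluster also held endothelial markers at a summed 3352 CPM, against 5 to 81 CPM in every other combination of class and suffix. At a finer resolution 12 cells led by Cldn5 and Ly6c1 separated, 9 of them from suffix 2, and the non-classical monocyte-like cells of suffix 2 then had 2.26% nuclear and 1.86% mt- UMIs, a mt- ratio of -0.07, and 17 nuclear members higher and 0 lower.

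NK-like cells had a nuclear ratio of 0.54 (0.48 to 0.59), with the median gene at 0.35, and a mt- ratio of -0.37 (-0.42 to -0.31). With the median set to 0 the nuclear ratio was 0.19, below the 0.38, 0.23 and 0.21 of non-classical monocyte-like, classical monocyte-like and Cd209a dendritic-like cells on that scale, whereas on the scale of total UMIs it was the highest of the 6. Past 1.5-fold were 33 of 67 nuclear members higher and 2 lower, against 39.6% and 26.8% of 1461 genes, or 14 and 3 with the median set to 0. Cox5a had 558 CPM (1.58), Cox7b 417 against 138 CPM (1.57) and Ndufa4 619 against 222 CPM (1.47), followed by Ndufs6 (1.41), Ndufb6 (1.34) and Ndufb2 (1.30). The lowest were Ndufs3 (-0.88), Ndufc2 (-0.78), Cox7a2l (-0.56), Atp5g2 (-0.19), Ndufs7 (-0.08) and Ndufs8 (-0.07). Of 11 mt- genes 5 lay at least 1.5-fold lower, or 8 with the median set to 0: mt-Nd4l (-1.11), mt-Nd4 (-0.91), mt-Nd3 (-0.84), mt-Nd1 (-0.75) and mt-Cytb (-0.75).

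Cd209a dendritic-like cells had a nuclear ratio of 0.24 (0.20 to 0.29), with the median gene at 0.03, and a mt- ratio of -0.74 (-0.78 to -0.70). Past 1.5-fold were 11 of 72 nuclear members higher and 2 lower, against 27.9% and 26.3% of 3512 genes, or 8 and 3 with the median set to 0. The highest were Cox6b2 (1.07), Atp5l (0.91), Ndufa6 (0.83), Cox5a (0.81), Cox7b (0.78) and Atp5h (0.68). The lowest were Ndufv3 (-0.79), Ndufs3 (-0.68), Ndufaf7 (-0.57), Ndufa9 (-0.53), Ndufs7 (-0.51) and Ndufc2 (-0.29). Cox6b2 rested on 66 against 5 UMIs and reached the minimum of 50 only through the dendritic-like cells in which it is high, so its place among the 11 follows from that minimum. Of 12 mt- genes 8 lay at least 1.5-fold lower, with mt-Cytb at -1.76 and mt-Co1 at -0.11 as the ends of the range.

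In suffix 1, the same class gave a nuclear ratio of 0.41 (0.37 to 0.44) and a mt- ratio of -0.08 (-0.12 to -0.03), with the median gene at -0.37; with the median set to 0 the mt- ratio turns to 0.29. Past 1.5-fold were 18 of 78 nuclear members higher and 4 lower, against 14.5% and 40.6% of 7345 genes, or 43 and 1 with the median set to 0. Cox5a had 344 against 153 CPM (1.18), followed by Atp5e (0.99), Cox7b (0.95), Ndufa6 (0.93), Atp5d (0.91) and Cox5b (0.81). Ndufs1 (-0.83), Ndufa9 (-0.64), Ndufaf3 (-0.62), Ndufaf1 (-0.57) and Ndufs7 (-0.51) were the lowest members with a fold. The count of 4 lower includes Cox6a2, which had 0 UMIs against 54, gets no fold and reached the minimum of 50 UMIs only through microglia-like cells; without it 3 were lower. Of 12 mt- genes 5 lay at least 1.5-fold lower, mt-Nd2 (-0.87), mt-Cytb (-0.85), mt-Nd1 (-0.70), mt-Nd3 (-0.68) and mt-Nd4 (-0.67), while mt-Co1 stood at 0.54; with the median set to 0, 2 were higher and 0 lower. Summed microglia markers in these dendritic-like cells were 6177 CPM in suffix 1 and 1256 CPM in suffix 2.

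Ccr7 dendritic-like cells had a nuclear ratio of 0.13 (0.07 to 0.18), with the median gene also at 0.13 so that it is near 0 once that is set to 0, and a mt- ratio of -0.61 (-0.66 to -0.56). Past 1.5-fold were 7 of 67 nuclear members higher and 6 lower, against 32.6% and 29.7% of 1676 genes, or 4 and 7 with the median set to 0. Ndufb4 (1.26), Cox5a (1.20), Atp5l (0.82), Cox5b (0.72), Cox6c (0.61) and Cox7b (0.59) were highest. The lowest were Ndufs3, a core subunit of the electron-input arm of complex I, with 59.6 against 145 CPM (-1.26), Ndufs7 (-1.23), Ndufv3 (-0.93), Ndufb3 (-0.79), Uqcr11 (-0.77) and Ndufc2 (-0.62). Of 11 mt- genes 7 lay at least 1.5-fold lower, with mt-Nd4l at -2.11 and mt-Co1 at 0.02 as the ends of the range.

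Neutrophil-like cells did not differ from microglia-like cells in the nuclear sum beyond counting error, at 0.01 (-0.03 to 0.06), with the median gene at -0.06, while their mt- ratio was -0.80 (-0.85 to -0.75). Past 1.5-fold were 3 of 69 nuclear members higher, Atp5l (0.67), Cox5a (0.64) and Atp5e (0.59), and 6 lower, Ndufa9 (-1.23), Ndufs3 (-0.84), Atp5g2 (-0.80), Ndufa12 (-0.75), Ndufc2 (-0.68) and Atp5a1 (-0.59), against 24.1% and 29.8% of 2027 genes. Of 11 mt- genes 8 lay at least 1.5-fold lower, from mt-Nd4l (-1.93) to mt-Atp6 (-0.69). Genes of the Cd209a dendritic list, which includes MHC class II, summed to 25081 CPM in these cells against 770 CPM in microglia-like cells, and their part was not tested.

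**Figure D5:**
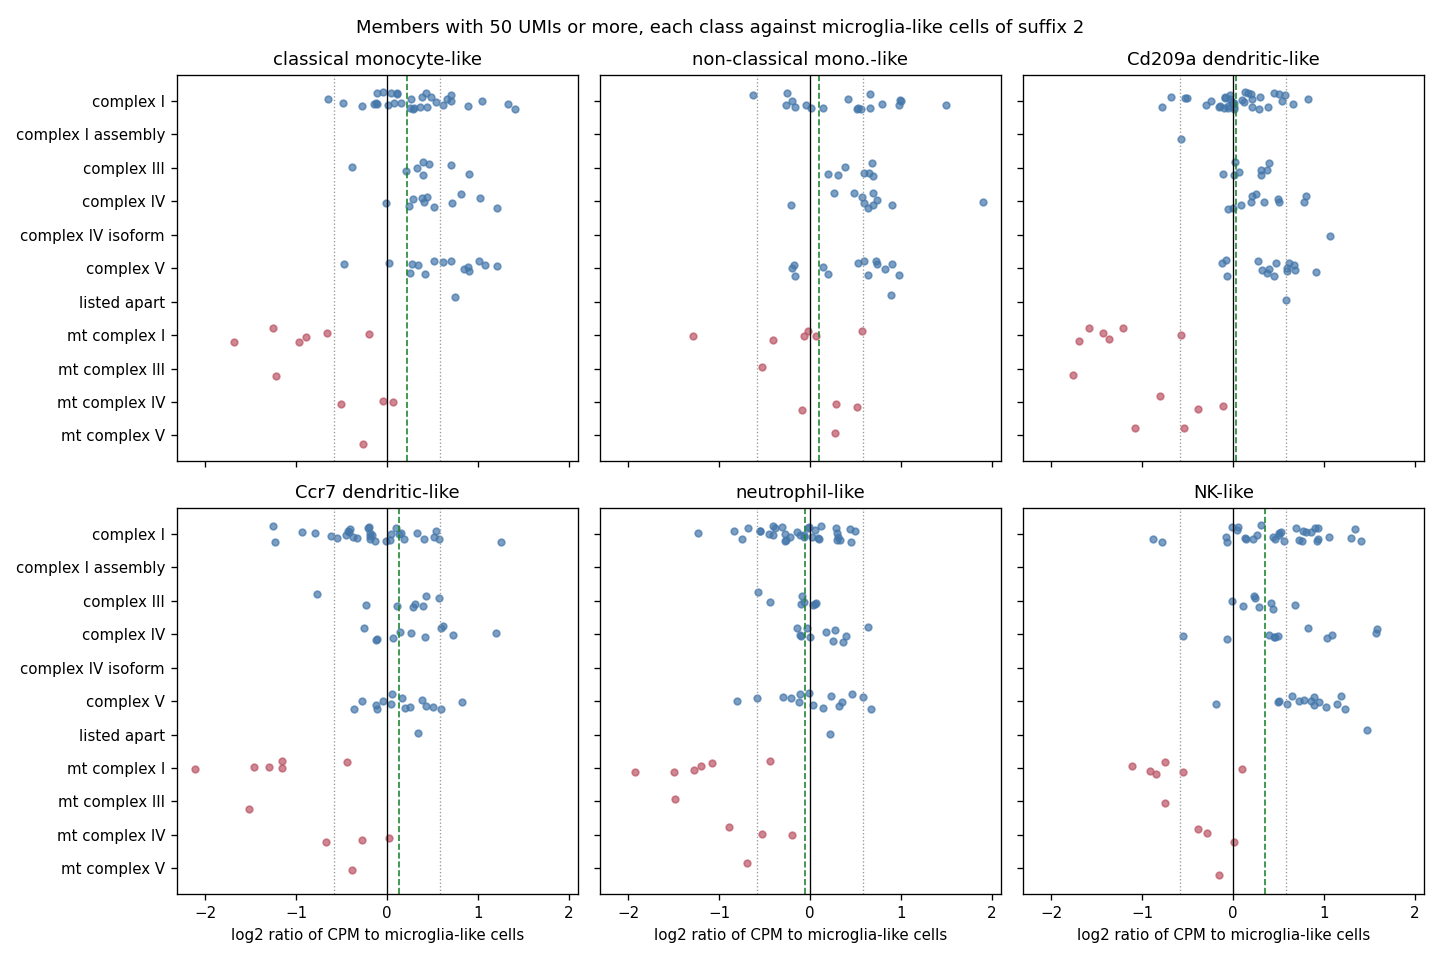
Log2 ratio of CPM of each member with at least 50 UMIs, in 6 classes against microglia-like cells of suffix 2, by role (blue nuclear, red mt-). The solid line is 0, the dashed green line the median over all genes, dotted lines 1.5-fold. Most mt complex I and III points lie left of 0 in every panel but that of non-classical monocyte-like cells, and mt complex IV points nearer to 0.

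The neutrophil-like class was not uniform. At a finer resolution it split into 63 cells led by Ngp, Camp and Ltf, genes of granule proteins made in immature neutrophils, and 71 cells led by genes such as Cxcr2 and Il1b. The granule-led cells had a nuclear share of 1.21% (1.17 to 1.25) and a mt- share of 0.45% (0.43 to 0.48), and the Cxcr2-led cells 1.82% (1.78 to 1.85) and 1.37% (1.34 to 1.40). Median depths were 3436 and 7991 UMIs. The contrast was present in both suffixes, with 1.23% and 0.47% in the granule-led cells of suffix 2, 1.24% and 0.43% in those of suffix 3, 1.84% and 1.39% in the Cxcr2-led cells of suffix 2 and 2.07% and 1.44% in those of suffix 3. Their share of the class was 36 against 54 cells in suffix 2 and 20 against 9 in suffix 3. The part of this in the lower sums of suffix 3 was not tested. Within the class the nuclear and mt- shares went together over cells, with a Spearman correlation of 0.45 in suffix 2 and 0.78 in suffix 3 after thinning each cell to 2000 UMIs. It was 0.44 in the cycling cluster of suffix 3 and 0.33 in Cd209a dendritic-like cells of suffix 2, 0.14 and 0.06 in microglia-like cells of suffixes 1 and 2, and these correlations are descriptions over cells of 1 library each. Before thinning, both shares also went with depth in neutrophil-like cells, at 0.64 and 0.48 in suffix 2 and 0.71 and 0.75 in suffix 3.

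Border-associated macrophage-like cells were close to microglia-like cells of suffix 1 in the nuclear sum and higher in the mt- sum. The nuclear ratio was 0.13 (0.10 to 0.16) and the mt- ratio 0.46 (0.43 to 0.49), with the median gene at 0.02. Only Ndufb2, an accessory subunit of the membrane arm of complex I, lay past 1.5-fold among 79 nuclear members, with 119 against 62.8 CPM (0.93, 0.58 to 1.25), and none was lower, against 11.5% and 8.53% of 7585 genes. All 12 mt- genes were above 0, from mt-Cytb (0.16) to mt-Atp8 (0.73), and mt-Atp8 and mt-Co1 (0.64) passed the fold. Microglia markers summed to 23550 CPM in these cells, and where these UMIs came from was not tested.

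Within suffix 1 the stress and cytokine cluster of microglia-like cells (97 cells) was compared with the other 988. The nuclear ratio was -0.09 (-0.12 to -0.06), equal to the median gene at -0.09 and turning to 0.00286 once that is set to 0, and the mt- ratio 0.12 (0.09 to 0.15). Past 1.5-fold were 1 of 78 nuclear members higher, Cox6a2 (0.75, on 11 and 43 UMIs), and 5 lower, against 6.39% and 10.4% of 7110 genes. The 5 were Ndufaf4 (-1.17), Ndufv1, Ndufs3 (-0.82), Atp5sl (-0.63) and Ndufs1 (-0.63). Ndufv1, Ndufs1 and Ndufs3 belong to the electron-input arm of complex I. Ndufv1, which binds NADH, had 26.3 against 55.3 CPM, and Ndufs3 67.2 against 121 CPM. No mt- gene passed the fold.

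The cycling cluster was compared with classical monocyte-like cells, the class planned as the non-cycling reference, although the cluster itself could not be named. The nuclear sums lay close together, with log2 ratios of -0.05 (-0.10 to 0.00) in suffix 2 and -0.01 (-0.03 to 0.02) in suffix 3. The mt- ratio was -0.31 (-0.38 to -0.25) in suffix 2 and 0.20 (0.17 to 0.23) in suffix 3, and it did not keep its sign under other ways of filtering and clustering. Without the limit on mt- counts, for example, it was 0.68 in suffix 2, and with at least 1000 detected genes per cell -0.02 in suffix 3. In suffix 2, 6 of 68 nuclear members were at least 1.5-fold higher and 5 lower, against 19.3% and 22.3% of 1479 genes. The 6 were Atp5g2 (0.93), Uqcrc2 (0.85), Ndufc1 (0.73), Ndufab1 (0.70), Ndufa5 (0.61) and Ndufb11 (0.60), and the 5 were Ndufs6 (-0.95), Ndufb4 (-0.74), Ndufa8 (-0.71), Uqcrh (-0.68) and Ndufb3 (-0.62). Of 9 mt- genes mt-Nd5 (-1.26), mt-Nd2 (-0.99) and mt-Nd4 (-0.65) were lower.

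In suffix 3, 5 of 75 nuclear members were higher and 3 lower, against 24.3% and 15.8% of 3805 genes, or 4 and 4 with the median, at 0.09, set to 0. Ndufab1, the mitochondrial acyl carrier protein and a complex I subunit, had 255 against 137 CPM (0.89), Ndufa5 181 against 98.3 CPM (0.87) and Ndufc1 243 against 153 CPM (0.65). Ndufaf2 (1.25) and Ndufaf4 (0.69) were also higher, and Ndufaf7 (-1.12), Ndufa1 (-0.86) and Ndufa6 (-0.62) lower. mt-Nd1 (1.03), mt-Nd2 (0.97) and mt-Nd4l (0.63) were higher. Mast cell or basophil markers summed to 1136 CPM in the cycling cells of suffix 2 and 44.9 CPM in those of suffix 3, and the MHC class II containing dendritic list to 35255 and 9903 CPM, so the make-up of the cluster by these markers differed between the 2 suffixes.

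Over the 17 combinations of class and suffix most members followed the rest of their genome. Of 70 nuclear members with at least 500 UMIs, 62 had a Spearman correlation over 0.5 with the sum of the other nuclear members, the median was 0.78 and none was below 0. Of 3128 other genes with as many UMIs, 648 (20.7%) had a correlation over 0.5 with the nuclear sum, with a median of 0.10. The highest were Ndufb5 (0.95), Atp5j and Cox5b (0.93 each). The lowest were Cox7a2l (0.06), Ndufc2 (0.08), Ndufv3 (0.10), Ndufs3 (0.30) and Ndufa9 (0.31). Of 12 mt- genes 10 were over 0.5, with a median of 0.81, against 10.4% of the other genes with the mt- sum, and mt-Atp8 (0.48) and mt-Nd4l (0.49) were lowest. The points share libraries and differ in depth, and all members share the scale of total UMIs. Outside the member list the genes most like the nuclear sum among 3128 ranked were Mrps14 (0.94), Xrn2 (0.93), Rpl22l1 (0.92), Tma7 (0.91) and Gtf2h5 (0.91), and those most like the mt- sum were Rbm7 (0.83), Tmem234 (0.82), Trappc2l (0.81), Abcf1 (0.80) and Atp1b3 (0.80).

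The promoters of nuclear members were read from RefSeq (GRCm38.p6), which matched 70 of 88 nuclear members by symbol or gene ID. In the 250 bases before the start site, the core of the site of NRF1, a transcription factor known for nuclear mitochondrial genes, written GCATGCGC and sought on both strands, was present in 8 of 70 members (11.4%). These were Atp5g2, Atp5k, Atp5l, Cox6a1, Ndufa11, Ndufa6, Ndufa8 and Ndufaf4. The same letters were present in 2.56% of 27025 genes and in 5.21% of the 2438 other genes with at least 500 UMIs, matched by symbol only. The ETS core CCGGAAGT was present in 3 members (4.29%), against 3.23% and 6.97%, and the GC box GGGCGG in 27 (38.6%), against 35.4% and 64.0%. Of these 8 promoters 2 are shown as examples, with the match in capitals, read on the gene's strand: Cox6a1, whose level followed the other nuclear members (0.91), and Atp5g2, which followed them less (0.50).

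Cox6a1, chr5:115348959-115349208, minus strand: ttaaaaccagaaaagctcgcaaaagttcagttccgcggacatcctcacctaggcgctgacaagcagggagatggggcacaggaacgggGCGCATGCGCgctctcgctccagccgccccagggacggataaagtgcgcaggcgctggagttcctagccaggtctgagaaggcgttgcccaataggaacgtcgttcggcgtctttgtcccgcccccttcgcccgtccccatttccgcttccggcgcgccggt
Atp5g2, chr15:102671048-102671297, minus strand: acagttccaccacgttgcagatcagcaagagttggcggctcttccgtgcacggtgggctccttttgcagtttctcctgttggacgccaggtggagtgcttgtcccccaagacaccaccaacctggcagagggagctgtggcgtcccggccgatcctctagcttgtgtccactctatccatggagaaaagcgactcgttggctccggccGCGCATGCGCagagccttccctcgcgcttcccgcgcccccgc

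In both, the capitals hold the core on each strand, overlapping by 6 bases. A match describes the letters in this window and does not show that the factor binds there.

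The rest of the pathway was read from lists outside the naming rule. The first list holds complex II, cytochrome c, assembly factors and other genes tied to the complexes. Between microglia-like cells of suffixes 2 and 1 it had 4 of 27 members past the fold higher and 2 lower, with a median log2 ratio of 0.01. Genes of mitochondrial transcription and translation had 8 of 84 higher and 11 lower (median -0.07), and tricarboxylic acid cycle genes 1 of 15 higher, Pdhb, and 2 lower, Idh3a and Ogdh (median -0.14). In NK-like cells of suffix 2, only 9 of the 31 genes of the first list had at least 50 UMIs over both sums. Of these, 7 were higher, Cycs, Cyc1, Sdhb, Sdhd, Cox14, Cox17 and Usmg5, and Atpif1, the inhibitor of complex V, lower (median 0.76). Among all genes tested there 39.6% were higher and 26.8% lower, with the median gene at 0.35. Genes of the list with few UMIs are missing from this count. In Cd209a dendritic-like cells of suffix 2, 14 of 59 genes of mitochondrial transcription and translation were higher and 4 lower (median 0.29). Of all genes 27.9% were higher and 26.3% lower, with the median gene at 0.03. The list thus had no larger share of higher genes than the background and a smaller share of lower ones. In the cycling cluster of suffix 3, that list had 15 of 68 higher, among them Mrpl12 and Mrps28, and 2 lower, Mrpl33 and Mrpl22 (median 0.24). Of all genes 24.3% were higher and 15.8% lower, with the median gene at 0.09. Again the share of higher genes was no larger than the background, and that of lower genes was smaller. Among 18 regulators and carriers of the organelle, 13 could be compared between microglia-like cells of suffixes 2 and 1, with Hif1a higher and Nrf1 and Vdac3 lower (median 0.04). In classical monocyte-like cells of suffix 2 that list had 4 of 7 higher, Higd1a, Slc25a5, Ucp2 and Vdac3, and Nfe2l2 lower. The shares of all genes past the fold given above are the background for these counts.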

How the data were processed

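The deposited matrix holds whole-number UMI counts per gene and cell barcode, made by the authors with Cell Ranger 2.0.1 on mm10, per the submitters' processing notes. Whether the counting used strand is not given in the sources used here. It is 1 matrix for all libraries, with 1263, 599 and 287 barcodes of suffixes 1, 2 and 3 and 6410990, 4022293 and 2831118 UMIs.

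Cells with fewer than 500 genes (2) or more than 10% mt- counts (3) were left out. Scrublet, run in scanpy 1.11.5, marked 7 of 2144 cells (0.326%), a share at which it has not worked, so doublets may remain. Counts were scaled to 10000 per cell and clustered on 2000 variable genes, which include members, with 30 components, 15 neighbours and Leiden resolution 0.5 (igraph 0.11.9). A cluster took a name when at least 3 listed markers were found in at least 30% of its cells at no less than 2 times the median CPM over clusters, its 10 leading genes did not go against it and it had at least 20 cells. This naming rule was set after the clusters were seen. The cycling comparison therefore uses an unnamed cluster.

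Counts were summed per class and suffix and divided by all UMIs. A log2 ratio of a gene has 1 count added, scaled to each sum's total, and was computed for genes with at least 50 UMIs over both sums; the background is the share of all such genes past 1.5-fold. With 1 library per labelled group and suffixes not tied to groups, no p-value was computed. The ratio and interval steps were tested on simulated data.

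The members and gene lists were chosen with earlier results of these data known. Named in the text are, in each comparison, all members past the fold, or the 6 highest and 6 lowest where more than 12 passed, the highest and lowest member of each complex, all mt- genes, the complex IV and subunit c isoforms, and the 5 genes most like each sum. Some further members, such as Cox5a and Atp5h, are named as examples of levels by class. Alternatives changed the filters, clustering, scaling, depth, fold and UMI minimum. The values within single microglia-like clusters and within parts of the neutrophil-like class were added after seeing the data. Gene positions come from GENCODE vM21, which matched all 101 members by gene ID, and promoters from RefSeq GRCm38.p6.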

Additional observations from a re-analysis of the deposited data

Results flagged for a closer look

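The mt- log2 ratio of the cycling cluster against classical monocyte-like cells was -0.3122 in suffix 2 and 0.2003 in suffix 3. The ratios have opposite signs, and the difference between suffixes was not tested.

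An unnamed cluster of 9 cells, led by Npy, Fabp7 and Ptn, is in none of the comparisons. Its nuclear sum was 2.134% and its mt- sum 5.163% of UMIs, or 2.42 mt- UMIs per nuclear oxidative phosphorylation UMI. In suffix 1 (4 cells) the sums were 1.92% and 5.65%, and in suffix 2 (5 cells) 2.27% and 4.84%.

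The cluster of 12 cells led by Ttr, Enpp2 and Mt3 is also in none of the comparisons. Its nuclear sum was 5.182% and its mt- sum 6.715% of UMIs, both above every class with at least 20 cells in a suffix.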

How the results depend on the processing

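Values below are log2 ratios, and for each the cause of the difference was not tested. For the microglia-like, classical monocyte-like, stress cluster and suffix 3 cycling ratios, settings not named moved the ratio by less than its counting interval, and for the other comparisons the settings that changed its sign are given. In microglia-like cells, suffix 2 against 1, the nuclear ratio of 0.26 was 0.1762 with no limit on mt- counts, 0.1691 at Leiden resolution 1.0, 0.3039 with clusters built without member genes, 0.3509 with CPM free of mt-, Malat1 and ribosomal genes, 0.1941 as a mean of per-cell CPM and 0.4598 with the median gene set to 0. The mt- ratio of 0.69 was 0.6378 at resolution 1.0, 0.8362 without member genes, 0.781 with the reduced CPM, 0.7477 as a mean over cells, 0.7468 after thinning and 0.8899 with the median set to 0.

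In classical monocyte-like against microglia-like cells of suffix 2 the nuclear ratio of 0.45 was 0.3485 with at most 5% mt- counts, 0.3279 with at least 1000 genes, 0.5427 with doublets kept, 0.3619 without member genes, 0.507 with the reduced CPM, 0.5928 as a mean over cells and 0.2306 with the median set to 0. The mt- ratio of -0.44 was -0.65 with no limit, -0.6655 with at most 5%, -0.6831 with 1000 genes, -0.6269 with doublets, -0.6513 at resolution 1.0, -0.7616 without member genes, -0.3853 with the reduced CPM and -0.6617 with the median set to 0.

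Some ratios changed sign. The mt- ratio of non-classical monocyte-like cells (0.08) was -0.1936 with at most 5% mt- counts, -0.07439 at resolution 1.0, -0.08553 without member genes and -0.01462 with the median set to 0. The nuclear ratio of Ccr7 dendritic-like cells (0.13) was -0.00277 with the median set to 0. The mt- ratio of Cd209a dendritic-like cells of suffix 1 (-0.08) was 0.158 with the reduced CPM, 0.06606 as a mean over cells, 0.05969 after thinning and 0.29 with the median set to 0. In the stress and cytokine cluster the nuclear ratio (-0.09) was -0.0502 with the reduced CPM and 0.002855 with the median set to 0. Its mt- ratio (0.12) was 0.1516, 0.1992, 0.1509, 0.2174, 0.1575, 0.1965, 0.1754 and 0.2106 with no limit, at most 5%, resolution 1.0, no member genes, reduced CPM, mean over cells, thinning and the median set to 0.

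The cycling cluster against classical monocyte-like cells was least stable among these. In suffix 2 its mt- ratio (-0.31) was 0.6845 with no limit, 0.5469 with doublets and 0.09335 at resolution 1.0. In suffix 3 the nuclear ratio (-0.01) was 0.0395 with no limit, -0.09108 with at most 5%, -0.09844 with 1000 genes, 0.05157 with doublets, 0.06242 at resolution 1.0, -0.03606 with the reduced CPM, -0.07897 as a mean over cells and -0.09996 with the median set to 0. The mt- ratio (0.20) was 0.2771, 0.04066, -0.02074 and 0.3862 with those first 4 filters, 0.04199 as a mean over cells, 0.01611 after thinning and 0.1059 with the median set to 0. Clusters built without member genes merged the cycling cells with classical monocyte-like cells, so that comparison gave no value there.

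In suffix 2 the nuclear sum was above that of microglia-like cells in 6 named classes (5 to 6 over 10 alternatives), of which neutrophil-like cells lay within counting error. The mt- sum was below in 5 (5 to 6). Counts of nuclear members at least 1.5-fold higher ran from 7 to 20 in microglia-like cells, 14 to 32 in classical and 11 to 33 in non-classical monocyte-like, 14 to 45 in NK-like, 7 to 20 in Cd209a and 4 to 15 in Ccr7 dendritic-like, and 0 to 7 in neutrophil-like cells. At a fold of 2 they were 1, 8, 2, 13, 1, 2 and 0. Leaving out each suffix in turn moved the pooled nuclear share of microglia-like cells between 1.394% and 1.724% and their mt- share between 1.267% and 2.021%. Depth limits single members most in suffix 2, where microglia-like cells gave 297398 UMIs. No paired analysis was possible because the barcode suffixes are not tied to the labelled groups and carry no replicate numbers.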
